A study of Arabidopsis thaliana with 4 samples.

Results

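In Arabidopsis thaliana leaves, 48 genes had at least 3 times the transcript level in the library labelled sme1-1 at 4 °C that they had in each of the other 3 libraries of the study. They were chosen on these same libraries. A level is given as CPM, the read count of a gene scaled to a library total of 1e6 reads. A gene was a member when its mean over the 4 libraries was at least 1 CPM and its CPM plus 0.05 passed 3-fold over every other library. By name, 12 codes were left out, of which 7 met the rule and 5 did not. Of 23049 genes in any table, 17218 reached the mean of 1 CPM, 55 met the rule (0.319% of those compared) and 48 are described here. Since the rule used these values, the folds of the library labelled sme1-1 at 4 °C are a description, with no test.

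The study set Col-0, the wild type, beside sme1-1, a mutant of SME1 in the Col-0 background. Plants were 2 weeks old, grew on soil in long days under light of 90 µmol m-2 s-1, and leaf tissue was collected. The cold groups spent 24 h at 4 °C, and the light was lowered to 40 µmol m-2 s-1, so temperature and light cannot be told apart. Each of the 4 groups (Col-0 at 20 °C, sme1-1 at 20 °C, Col-0 at 4 °C and sme1-1 at 4 °C) was 1 RNA-seq library of 44.6 to 47.2 M counted reads (M, 1e6). There are no replicates, so no difference below has a replicate check and no p-value is given. Intervals are exact 95% intervals of a ratio of 2 counts. They cover counting error only, and reads copied by PCR are not independent molecules.

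SME1 encodes the Sm protein E of the ring that binds the small nuclear RNAs of the spliceosome, and its level went against the labels. It stood at 14.7 CPM in Col-0 at 20 °C, 27.8 CPM in sme1-1 at 20 °C, 0.679 CPM in Col-0 at 4 °C and 0.919 CPM in sme1-1 at 4 °C. SME1 was therefore low in both libraries labelled 4 °C rather than in both labelled sme1-1. A list of 15 cold-regulated genes had the other arrangement, with a summed level of 542, 16136, 589 and 20762 CPM in the same order, high in both libraries labelled sme1-1. The library labelled sme1-1 at 4 °C was low in SME1 and high in cold-regulated transcripts, and the library labelled Col-0 at 20 °C had the opposite state of both. The libraries labelled sme1-1 at 20 °C and Col-0 at 4 °C were high in both and low in both, the reverse of what their labels give, which leaves their labels in doubt. Each library is called by its label throughout. The leaf markers RBCS1A, LHCB1.3, CA1 and RCA summed to 75860, 64871, 82145 and 62413 CPM, lower in both libraries labelled sme1-1, the 4 seed markers to at most 0.178 CPM, and the pollen marker VGD1 was at 0 in all 4. The phloem marker SUC2 was at 62.6, 117, 69.1 and 156 CPM and the root-expressed PYK10 at 168, 70.9, 191 and 90.4 CPM, both also split by genotype label, and the part of these markers in the results was not tested. In bulk leaf tissue, fewer cells of a type and less RNA per cell cannot be told apart.

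As background, the Sm ring is part of the small nuclear ribonucleoproteins that remove introns from messenger RNA precursors. By annotation, and after the members were known, 10 of the 48 were placed with receptors and 13 with detoxification and conjugation. Receptor-like proteins and receptor kinases bind fragments of microbes or of the cell wall. Glutathione S-transferases, glycosyltransferases and efflux carriers conjugate and move reactive or foreign compounds. Late embryogenesis abundant (LEA) proteins accumulate when cells lose water.

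The promoters of 4 members are shown because they hold the short motifs examined further on, in genes of different roles. Each is the 250 bases before the annotated gene start, read 5′ to 3′ on the gene's strand (minus for all 4) from the TAIR10.1 assembly of RefSeq, and capitals mark the matches of the motif for which each is shown. Matches of the other motifs are left in lower case. AT1G05675 (chr1:1702750-1702999), NUC-L2 (chr3:6407947-6408196) and CRK5 (chr4:12120221-12120470) hold the pattern searched here for the mitochondrial dysfunction motif. That pattern is CTTG, any 5 bases and then CANG, where N is any base. LEA4-5 (chr5:2090431-2090680) holds ACGTG, the core of the abscisic acid response element.
AT1G05675: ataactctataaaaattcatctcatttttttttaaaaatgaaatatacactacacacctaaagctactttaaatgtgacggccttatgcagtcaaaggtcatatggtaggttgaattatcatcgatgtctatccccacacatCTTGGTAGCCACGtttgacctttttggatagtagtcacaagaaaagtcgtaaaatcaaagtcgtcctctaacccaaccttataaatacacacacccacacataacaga
NUC-L2: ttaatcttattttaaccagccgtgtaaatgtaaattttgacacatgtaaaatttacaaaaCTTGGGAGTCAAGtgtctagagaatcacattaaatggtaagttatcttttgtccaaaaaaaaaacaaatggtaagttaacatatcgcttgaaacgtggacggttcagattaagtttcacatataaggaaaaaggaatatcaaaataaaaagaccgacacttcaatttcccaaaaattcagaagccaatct
CRK5: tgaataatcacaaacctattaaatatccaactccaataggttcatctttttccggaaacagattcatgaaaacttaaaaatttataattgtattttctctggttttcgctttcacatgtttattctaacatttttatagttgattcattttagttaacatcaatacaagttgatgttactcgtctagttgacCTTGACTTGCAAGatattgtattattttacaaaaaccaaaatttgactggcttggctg
LEA4-5: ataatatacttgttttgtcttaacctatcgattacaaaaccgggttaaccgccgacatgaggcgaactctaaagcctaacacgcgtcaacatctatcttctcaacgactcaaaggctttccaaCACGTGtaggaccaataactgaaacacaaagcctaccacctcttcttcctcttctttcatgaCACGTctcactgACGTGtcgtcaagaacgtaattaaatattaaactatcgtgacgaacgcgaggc
The match starts 108 bases before the gene start in AT1G05675, 190 bases before it in NUC-L2 and 58 bases before it in CRK5. In NUC-L2 and CRK5 the same bases match on both strands. LEA4-5 has 4 matches of ACGTG, of which the pair at 127 and 126 bases before the start forms the palindrome CACGTG.

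**Figure D1:**
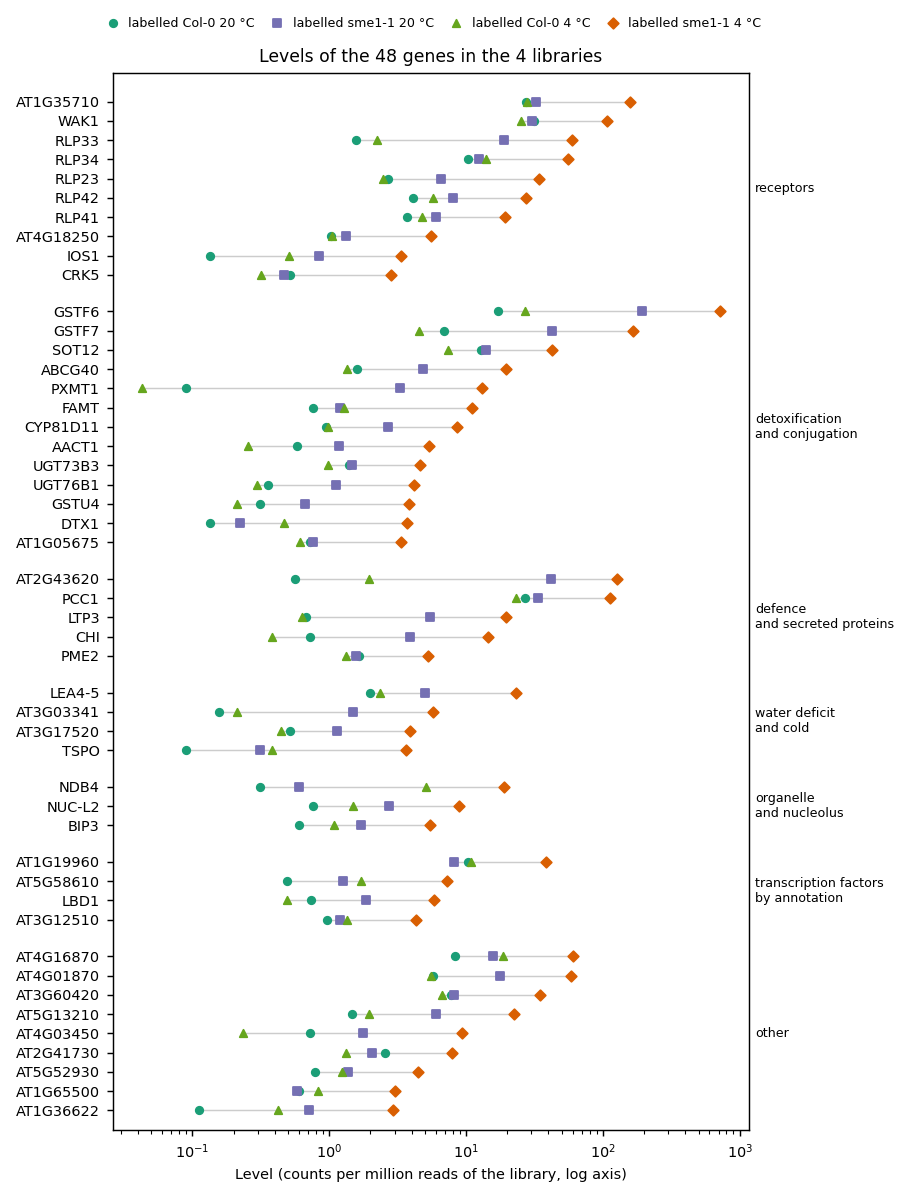
Levels of the 48 genes in the 4 libraries, in CPM on a log axis, grouped by the role their annotation gives. Each point is 1 library and the grey line spans the range of a gene. The library labelled sme1-1 at 4 °C is the highest point of every gene, as the rule requires, while the order of the other 3 points differs between genes.

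The folds over the highest other library were mostly close to the threshold. By the ratio the rule used, 33 members were under 4-fold, 8 were from 4-fold to under 5-fold and 7 were at least 5-fold, with a median of 3.71 and a maximum of 8.58 for TSPO. The lower interval bound was above 2-fold for all 48 and above 3-fold for 28. The rule chose the members on these same counts, so the bounds are a description and no check of membership. Just inside the threshold stood AT2G43620 at 3.03, SOT12 at 3.04 and UGT73B3 at 3.05. Just outside it stood SARD1, a regulator of salicylic acid synthesis, at 2.997, and ACD6 and AT1G13470, both at 2.99. As background, 4.73% of the genes compared were at least 3-fold higher in this library than in Col-0 at 20 °C, 4.62% than in Col-0 at 4 °C and 0.952% than in sme1-1 at 20 °C. Only 3, 2 and 3 genes met the same rule, with no code left out, for the libraries labelled Col-0 at 20 °C, sme1-1 at 20 °C and Col-0 at 4 °C, which are 0.0174%, 0.0116% and 0.0174%. The comparison with sme1-1 at 20 °C set the membership: without it as a comparator 584 genes met the rule, without Col-0 at 4 °C 89 did, and without either 806 did.

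Per length, in deposited RPKM, which scales reads by gene length and library size, the members spanned 1.17 to 683 in the library labelled sme1-1 at 4 °C. GSTF6 was the most abundant at 683 RPKM, followed by PCC1 at 207, GSTF7 at 181 and AT2G43620 at 123, and 18 members were under 5 RPKM. The median level of the members there was 10.2 CPM, against 14.8 CPM for all genes compared. In the libraries labelled Col-0 at 20 °C, sme1-1 at 20 °C and Col-0 at 4 °C their medians were 0.863, 2.37 and 1.31 CPM. In the other 3 libraries the medians were below those of all genes compared, but single members were not, such as WAK1, AT1G35710 and PCC1. Of the 48, 13 had a mean under 1 CPM over the other 3 libraries, and passed the filter on the mean through the library where they were high.

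Of the 10 receptors, 7 lay within 2-fold across the other 3 libraries, as did 79.3% of all genes compared. RLP23, the receptor for a peptide shared by microbial necrosis-inducing proteins, stood at 2.69, 6.58, 2.48 and 34.2 CPM in the libraries labelled Col-0 at 20 °C, sme1-1 at 20 °C, Col-0 at 4 °C and sme1-1 at 4 °C, the order used from here on. Its fold over the highest other library was 5.19 (4.58 to 5.90). The leucine-rich repeat kinase gene AT1G35710 stood at 27.2, 32.4, 27.9 and 157 CPM, 4.86-fold (4.59 to 5.14) over the next library. WAK1, a wall-associated kinase that binds pectin, was at 31.1, 30.3, 25.1 and 107 CPM, or 3.44-fold (3.24 to 3.65). In AT1G35710 and WAK1 the first 3 libraries were close together and the last stood alone.

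RLP33 differed from them, at 1.57, 18.9, 2.23 and 59.2 CPM, so that the library labelled sme1-1 at 20 °C was already 12-fold (9.43 to 15.6) above Col-0 at 20 °C. RLP34 was at 10.4, 12.4, 13.9 and 55.2 CPM. RLP42, which recognises fungal polygalacturonases, was at 4.08, 7.98, 5.73 and 27.5 CPM, and RLP41 was at 3.68, 6.02, 4.75 and 19.2 CPM. These receptor-like proteins lack a kinase domain and signal through partner kinases. RLP42 is 94.1% identical to RLP40 and RLP41 is 91.1% identical to RLP39 over most of the transcript, so reads could be shared between copies and their values are uncertain. RLP34 is 89.4% identical to RLP53 over 97.9% of its transcript, with the same limit. CRK5, a cysteine-rich receptor kinase, was at 0.516, 0.467, 0.318 and 2.84 CPM, from 23, 21, 15 and 133 reads, a fold of 5.51 (3.52 to 9.0). AT4G18250, annotated as a receptor serine/threonine kinase, was at 1.03, 1.33, 1.04 and 5.51 CPM. IOS1, a leucine-rich repeat kinase of pattern-triggered immunity, was at 0.134, 0.845, 0.509 and 3.35 CPM, with only 6 reads in the library labelled Col-0 at 20 °C. Both CRK5 and IOS1 had few reads outside the library labelled sme1-1 at 4 °C, and their intervals are wide.

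Detoxification and conjugation held 13 members. The neighbouring glutathione S-transferase genes GSTF6 and GSTF7, which are linked to camalexin synthesis and defence, were the only members adjacent to one another. GSTF6 stood at 17.1, 193, 26.9 and 717 CPM and GSTF7 at 6.90, 42.2, 4.52 and 167 CPM. GSTF6 was 3.72-fold (3.64 to 3.81) and GSTF7 3.96-fold (3.76 to 4.16) above the library labelled sme1-1 at 20 °C, which itself was 11.3-fold and 6.11-fold above Col-0 at 20 °C. Both genes therefore had a graded order, with Col-0 at 20 °C and Col-0 at 4 °C low, and they are 87.1% identical over 90.7% of the GSTF6 transcript. GSTU4, of the tau class, was at 0.314, 0.667, 0.212 and 3.80 CPM, a fold of 5.70 (3.86 to 8.70).

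FAMT, which methylates farnesoic acid, had the highest fold of these 13, at 0.762, 1.2, 1.27 and 11.1 CPM and 8.73-fold (6.67 to 11.6). It is 91.3% identical to AT3G44870 over 68.4% of its transcript. DTX1, an efflux carrier for toxic compounds, stood at 0.134, 0.222, 0.467 and 3.72 CPM, 7.97-fold (5.10 to 13.0). It is 86.4% identical to its neighbour AT2G04050, a code left out by name, over 84.8% of its transcript, so reads could be shared. ABCG40, a transporter that imports abscisic acid, stood at 1.59, 4.85, 1.34 and 19.7 CPM, 4.06-fold (3.50 to 4.72). The methyltransferase gene PXMT1 had 4, 147, 2 and 614 reads, or 0.0897, 3.27, 0.0424 and 13.1 CPM, so it was nearly unread in both libraries labelled Col-0. It is 90.7% identical to AT1G66690 over 57.2% of its transcript.

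Among the glycosyltransferases, UGT76B1, which glucosylates salicylic and isoleucic acid, was at 0.359, 1.11, 0.297 and 4.19 CPM. AT1G05675 was at 0.717, 0.756, 0.615 and 3.35 CPM, and UGT73B3 was at 1.39, 1.47, 0.976 and 4.57 CPM. AT1G05675 is 89.0% identical to UGT74E2, a code left out by name, over 94.2% of its transcript, so reads could be shared. UGT73B3 is 88.2% identical to UGT73B2 over 57.9% of its transcript, with the same limit. AT1G05675 and UGT73B3 lay within 2-fold across the first 3 libraries and UGT76B1 did not. The acyltransferase gene AACT1 (0.583, 1.18, 0.255 and 5.36 CPM) and the cytochrome P450 gene CYP81D11 (0.941, 2.67, 0.976 and 8.61 CPM) were highest elsewhere in sme1-1 at 20 °C. SOT12, a sulfotransferase that acts on salicylic acid and flavonoids, stood at 12.8, 13.9, 7.36 and 42.3 CPM.

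The 5 defence and secreted proteins included a pair of chitinase genes with steep gradients. AT2G43620 stood at 0.560, 42.0, 1.95 and 127 CPM, and CHI at 0.717, 3.87, 0.382 and 14.6 CPM. AT2G43620 was 75.0-fold (50.6 to 116) higher in the library labelled sme1-1 at 20 °C than in Col-0 at 20 °C, against 3.03-fold (2.88 to 3.20) between the libraries labelled sme1-1. For this gene the larger step lay between the libraries labelled 20 °C. LTP3, a lipid transfer protein, was at 0.672, 5.42, 0.636 and 19.7 CPM. PCC1, a gene under pathogen and circadian control, was at 27.1, 33.5, 23.3 and 113 CPM, and PME2, a pectin methylesterase, at 1.66, 1.56, 1.31 and 5.23 CPM. PCC1 and PME2 lay within 2-fold across the first 3 libraries. A copy of part of PCC1, AT3G22235, is 99.4% identical over 44.5% of its transcript, so its value is uncertain.

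All 4 members tied to water deficit or cold were graded. TSPO, an abscisic acid-induced membrane protein, had 4, 14, 18 and 171 reads (0.0897, 0.311, 0.382 and 3.65 CPM) and a fold of 9.57 (5.88 to 16.5). LEA4-5 stood at 1.99, 4.98, 2.33 and 23.3 CPM, 4.68-fold (4.05 to 5.43). AT3G03341, annotated as cold-regulated, was at 0.157, 1.49, 0.212 and 5.70 CPM, and the LEA gene AT3G17520 at 0.516, 1.13, 0.445 and 3.87 CPM. LEA4-5, AT3G03341 and AT3G17520 had their second highest level in the library labelled sme1-1 at 20 °C, where the cold-regulated list was also high, and the part of that state in their levels was not tested.

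NDB4, an NAD(P)H dehydrogenase on the outer face of the inner mitochondrial membrane, had a different order. It stood at 0.314, 0.600, 5.09 and 19.0 CPM. The library labelled Col-0 at 4 °C was 16.2-fold (9.48 to 30.1) above Col-0 at 20 °C, and sme1-1 at 4 °C was 3.74-fold (3.24 to 4.33) above Col-0 at 4 °C. The 2 libraries low in SME1 were thus the 2 with high NDB4, and no other member was at least 10-fold higher in Col-0 at 4 °C than in Col-0 at 20 °C, beside 0.0523% of all genes. NUC-L2, a nucleolin that acts in ribosomal RNA gene chromatin, was at 0.762, 2.71, 1.48 and 8.89 CPM. BIP3, an endoplasmic reticulum chaperone of the unfolded protein response, was at 0.605, 1.71, 1.08 and 5.43 CPM. The more abundant chaperone genes BIP1 (163, 245, 168 and 290 CPM) and BIP2 (130, 166, 130 and 196 CPM) had the same order with smaller steps.

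The 4 members that their product names call transcription factors were AT5G58610, AT1G19960, AT3G12510 and LBD1. The PHD finger gene AT5G58610 was at 0.493, 1.27, 1.70 and 7.24 CPM, a fold of 4.27 (3.34 to 5.52). LBD1, of the LOB domain family, was at 0.740, 1.87, 0.488 and 5.81 CPM, and the MADS-box gene AT3G12510 at 0.964, 1.2, 1.36 and 4.32 CPM. AT1G19960 stood at 10.3, 8.18, 10.8 and 38.1 CPM. The deposited share of its length covered by reads was 64.43%, 32.61%, 78.78% and 37.04%, so the library with the most reads covered less of the gene than either library labelled Col-0.

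The other 9 members had no role that places them together. The ankyrin repeat gene AT4G03450 was at 0.717, 1.78, 0.233 and 9.38 CPM, 5.27-fold (4.15 to 6.78) over the next library. AT3G60420, annotated as a phosphoglycerate mutase, stood at 7.78, 8.11, 6.64 and 34.6 CPM, with 48.94% to 49.35% of its length covered in every library. AT4G01870 was at 5.76, 17.6, 5.56 and 58.8 CPM. AT4G16870, which the annotation calls a pseudogene, was at 8.36, 15.7, 18.7 and 60.3 CPM, and AT5G13210 at 1.46, 6.02, 1.95 and 22.4 CPM. Of the rest, AT2G41730 was at 2.56, 2.07, 1.31 and 7.93 CPM. AT1G36622, AT1G65500 and AT5G52930 reached 2.91, 3.01 and 4.47 CPM. Over all 48 members, 36 had at least 90% of their length covered in the library labelled sme1-1 at 4 °C, compared with 10, 21 and 13 in the other 3, and 6 were under 80% there. The rule requires more reads in that library, and more reads tend to cover more of a gene, so these counts follow from the choice. Over all genes compared, the median share covered was 94.1% in Col-0 at 20 °C and 95.4% in sme1-1 at 4 °C.

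The name "high only in sme1-1 at 4 °C" held more closely for some members than for others. In 19 members the other 3 libraries lay within 2-fold of one another, a state shared by 79.3% of all genes compared. The remaining 29 were graded. In 24 of them the library labelled sme1-1 at 20 °C was the highest of the other 3, and in 5 (TSPO, DTX1, AT5G58610, NDB4 and AT4G16870) it was Col-0 at 4 °C. The ratio of sme1-1 at 20 °C to Col-0 at 4 °C was 0.815 (0.375 to 1.73) in TSPO and 0.476 (0.201 to 1.05) in DTX1. In AT5G58610 it was 0.747 (0.522 to 1.06). Among the 24, it was 1.66 (0.970 to 2.89) in IOS1 and 1.68 (0.930 to 3.09) in AT1G36622. The order of those libraries was thus within counting error in each of these genes. With 0.5 CPM added, 24 members rather than 19 lay within 2-fold.

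**Figure D2:**
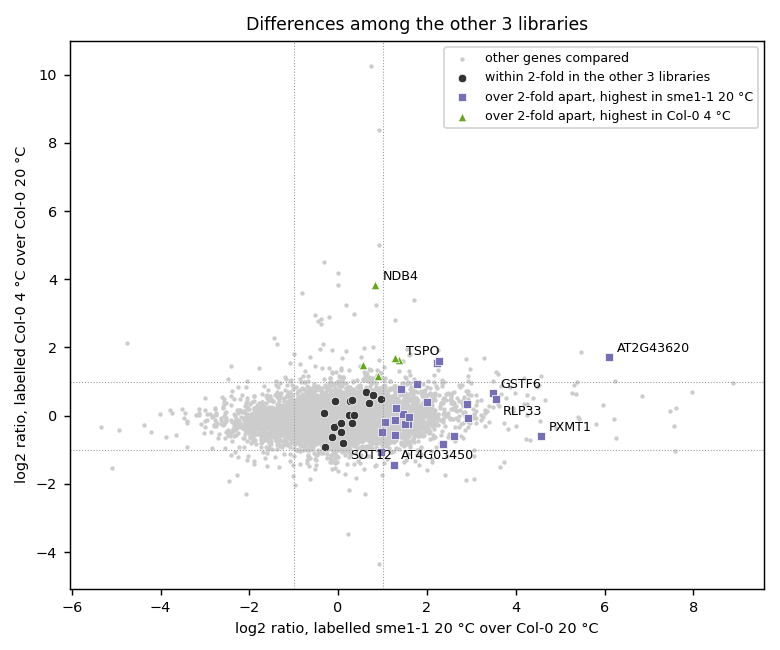
Differences among the 3 libraries in which the members were lower, as the log2 ratio of CPM plus 0.05 for the library labelled sme1-1 at 20 °C over Col-0 at 20 °C (x axis) and for Col-0 at 4 °C over Col-0 at 20 °C (y axis). Grey points are the other genes compared, coloured points the 48 members, and dotted lines mark 2-fold; 24 members lie beyond 2-fold to the right, with NDB4 alone near the top and AT2G43620 far to the right.

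Between the libraries labelled 20 °C, 24 of the 48 members were at least 2-fold higher in sme1-1 and 0 were 2-fold lower, beside 8.90% and 6.99% of all genes compared. Their median log2 ratio was 1.02, against 0.03 for all genes. Among the 35 members whose mean in the other 3 libraries reached 1 CPM, 17 were 2-fold higher, 0 were 2-fold lower and the median was 0.96. At least 10-fold differences occurred in 4 members, AT2G43620, PXMT1, RLP33 and GSTF6, beside 0.343% of all genes. Between the libraries labelled Col-0, 8 members were at least 2-fold higher at 4 °C and 2 (AT4G03450 and AACT1) were 2-fold lower, beside 0.784% and 0.767% of all genes, and the median log2 ratio was 0.04. These counts rest on low levels: they were 4 and 0 with 0.5 CPM added in place of 0.05, and 4 and 0 among the same 35 members. Comparing sme1-1 at 20 °C with Col-0 at 4 °C directly, 20 members were 2-fold higher and 1, NDB4, was 2-fold lower, beside 10.2% and 6.74%. The rule set an upper bound on each of these 3 libraries but did not fix their order, and the counts describe the chosen genes. These ratios share libraries, so they are not independent of one another, and they rest on the 2 libraries whose labels are in doubt.

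A further value compares the library labelled sme1-1 at 4 °C with the product of the 2 single ratios, that is, the level in Col-0 at 20 °C multiplied by the sme1-1 at 20 °C ratio and by the Col-0 at 4 °C ratio. It stays the same if the labels sme1-1 at 20 °C and Col-0 at 4 °C were exchanged. Of the 48 members, 47 were above the product, 41 of them by at least 2-fold and 22 by at least 4-fold. Of all genes compared, 55.7% were above it, 3.15% by 2-fold, and 1.57% were 2-fold below. The rule favours such values, so the count describes the choice. The median of the log2 difference was 1.98, and it ranged from -0.11 to 3.80.

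At the lower end of that range stood 7 members, in which the rule obliges both single ratios to be above 1. AT2G43620 stood at 127 CPM where the product was 138 CPM, and was the only member below it. IOS1 (log2 difference 0.33), AT1G36622 (0.41), NUC-L2 (0.78), AT4G16870 (0.78), AT5G58610 (0.78) and BIP3 (0.85) were above it by less than 2-fold. At the other end stood AT4G03450 (3.80), AACT1 (3.20), CRK5 (3.10), GSTU4 (2.90) and AT2G41730 (2.85), all of them lower in Col-0 at 4 °C than in Col-0 at 20 °C. In CRK5 and GSTU4 the interval of that ratio included 1. A low level in Col-0 at 4 °C also raises the log2 difference directly. GSTF6 had 717 CPM where the product was 302 CPM, and GSTF7 167 CPM where it was 27.7 CPM.

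**Figure D3:**
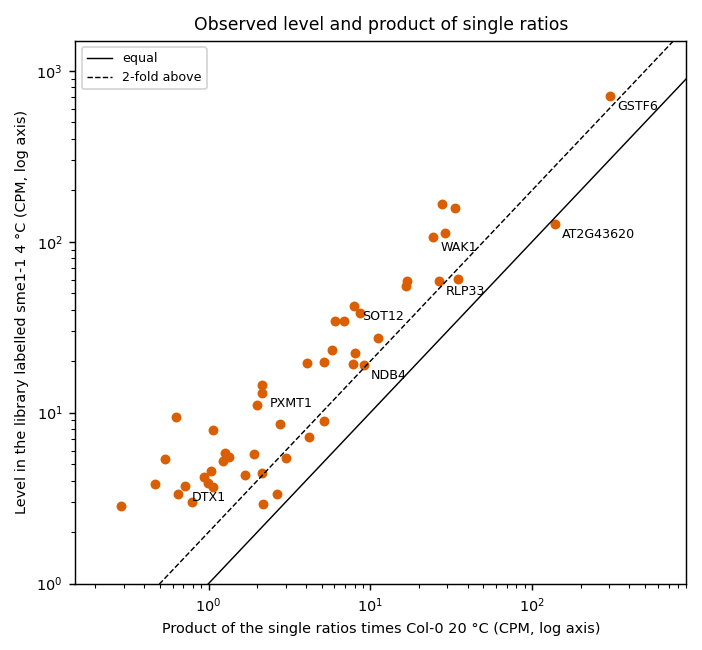
Level of each of the 48 genes in the library labelled sme1-1 at 4 °C (y axis, CPM, log axis) against the product of its 2 single ratios and its level in Col-0 at 20 °C (x axis, CPM, log axis). The solid line marks equality and the dashed line 2-fold above it; 41 points lie on or above the dashed line and 1, AT2G43620, below the solid line.

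Families of the members were also looked at as a whole, by annotated product name. Of 31 receptor-like protein genes compared, 5 met the rule (16.1%), where 0.319% of all genes did, and all 5 are members. The family was not uniform: 19 of the 31 had their highest level in the library labelled sme1-1 at 4 °C and 9 were 2-fold above the next library, where 5897 and 243 of all 17218 genes compared were. At the other extreme RLP55 was at 0.0740 of the highest other library. Glutathione S-transferases had 3 of 35 over the rule, chitinases 2 of 9, LEA proteins 3 of 13 (1 of them left out by name), and UDP-glycosyltransferases 4 of 79 (1 left out by name). Of larger families, 2 of 111 cytochromes P450 (1 left out by name) and 2 of 102 methyltransferases met it, 1.80% and 1.96%. CRK5 and WAK1 were the only members of 21 cysteine-rich receptor kinases and 7 wall-associated kinases, and CRK30 was at 0.0438 of its highest other library. These counts describe families that were looked up because the members belong to them.

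**Figure D4:**
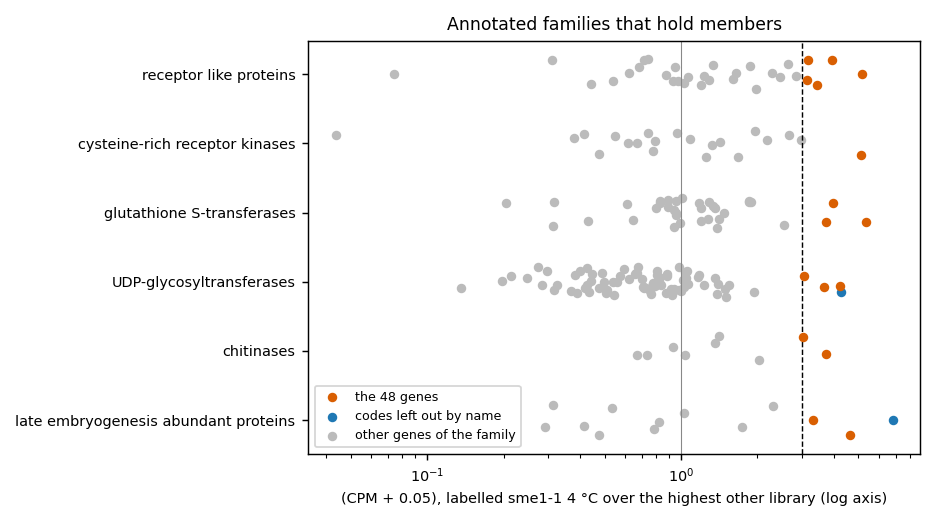
Ratio of CPM plus 0.05 in the library labelled sme1-1 at 4 °C to the highest other library (x axis, log axis) for every gene compared in 6 annotated families. Points are genes, the dashed line is the 3-fold threshold and the solid line equality; most grey points lie near or below 1, and 5 of 31 receptor-like protein genes are past the threshold.

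Of 10 lists of pathway genes, 5 held a member, and 11 of the 48 members were on a list. The share of all genes compared that are on a list was not computed. Beside the members counted per list below, 0.319% of all genes compared met the rule. The lists were chosen with earlier results of these data known. Of 19 detoxification genes compared, GSTU4, DTX1, CYP81D11, ABCG40 and UGT73B3 were members, and the list's median log2 ratio to sme1-1 at 20 °C was 1.35, against 0.03 for all genes. The members on a list were chosen partly on this ratio, so they raise its median. Codes left out by name were kept in the medians, and they too were higher than in sme1-1 at 20 °C. They numbered 1 in this list and 3 in each of the mitochondrial, camalexin and abscisic acid lists. The list of the mitochondrial retrograde response, the signalling from mitochondria to the nucleus, had NDB4 and SOT12 among 13 compared and a median of 1.47. Its left-out codes AOX1A, OM66 and UGT74E2 were at 3.09, 7.54 and 13.6 times their level in sme1-1 at 20 °C. Over the highest other library of each gene the folds were smaller, at 2.57, 2.19 and 4.32. DIC2, on the same list, went the other way, at 0.456 of its level in sme1-1 at 20 °C. Of 15 camalexin and indolic defence genes, GSTF6 and GSTF7 were members, with a median of 0.57. Among 25 abscisic acid and LEA genes, LEA4-5 was the member and the median was 0.60, and among 11 endoplasmic reticulum stress genes it was BIP3, with 0.31.

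Of the 19 salicylic acid and defence genes 0 met the rule, which at 0.319% of all genes says little for a list of this size, and their median log2 ratio to sme1-1 at 20 °C was 0.28. The pathogenesis-related genes did not share an order: PR1 was at 1.66, 2.13, 0.594 and 1.75 CPM and PR2 at 8.25, 33.5, 7.40 and 25.3 CPM, both highest in the library labelled sme1-1 at 20 °C. For PR1 the libraries labelled sme1-1 were close, and no interval is given for their ratio. PR5, the most abundant of the 3 at its peak, was at 10.4, 211, 6.36 and 325 CPM, highest in sme1-1 at 4 °C. SARD1, just outside the threshold, was at 3.03, 4.20, 3.14 and 12.7 CPM. The lists of DNA damage, senescence, jasmonate and ethylene, and cold-regulated genes also held 0 members, with the same limit. Their medians were 0.24, 0.52, 0.15 and 0.31.

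In the TAIR10.1 annotation, 16 of the 48 members had no intron (33.3%), against 12.5% of all genes compared. Among genes with a mean of 1 to 10 CPM, the share was 17.9% of 6800 genes and 10 of 33 members. RLP23, RLP41, RLP42, TSPO, AT3G17520, UGT73B3 and SOT12 were among the genes with no intron. The median number of exons was 2 for the members and 5 for all genes, and the median length was close, 1552.5 and 1598 bases. The members lay on all 5 chromosomes, with 14, 9, 13, 6 and 6 on chromosomes 1 to 5. Among 57 neighbouring genes compared that were not members, 4 not left out by name had a ratio of at least 2 to the highest other library. They were AT2G47780 at 2.0, RLP32 at 2.28, CRK6 at 2.18 and AT5G52940 at 2.92, beside 1.41% of all genes. AT1G05675 lies beside UGT74E2 and DTX1 beside AT2G04050, both left out by name. These neighbours are also among the 57, with ratios of 4.29 and 2.86.

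Short motifs were counted on both strands in windows from 250 bases before to 50 bases after the gene start. The W-box core TTGAC, bound by WRKY factors, was in 34 of 48 member windows (70.8%) and in 49.95% of all windows of genes compared. ACGTG was in 26 (54.2%, against 27.4%), and CACGTG, which contains it, in 20.8% against 8.98%. CCGAC, bound by CBF factors of cold acclimation, was in 15 windows (31.2%), against 16.7%. TGACG, bound by TGA factors and able to overlap TTGAC, was in 19 (39.6%), against 23.7%. In this window each of the 8 motifs searched was in a larger share of member windows than of all windows, with wide binomial intervals at 48 genes. With only the 250 bases before the start this held for all but AAAATATCT, the evening element, at 2.08% against 2.52%.

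The mitochondrial dysfunction motif is bound by NAC factors that carry signals from mitochondria. The pattern searched for it was in 6 member windows, those of AT1G05675, SOT12, AT2G41730, NUC-L2, CRK5 and AT5G52930. That is 12.5% (exact binomial interval 4.73 to 25.2%), against 1.45% of all windows. The interval takes the 48 genes as independent, although GSTF6 and GSTF7 are neighbours with similar sequence. All genes compared were not matched to the members in level or gene structure. Of the 6 genes, all but NUC-L2 lay within 2-fold in the other 3 libraries, as did 79.3% of all genes. With only the 250 bases before the start the pattern was in 4 of 48, or 8.33%, against 1.23%. GCCGCC was in 6.25% against 2.65%, and AAAATATCT in 4.17% against 3.02%. A match of letters is a description of these windows and not a binding site.

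**Figure D5:**
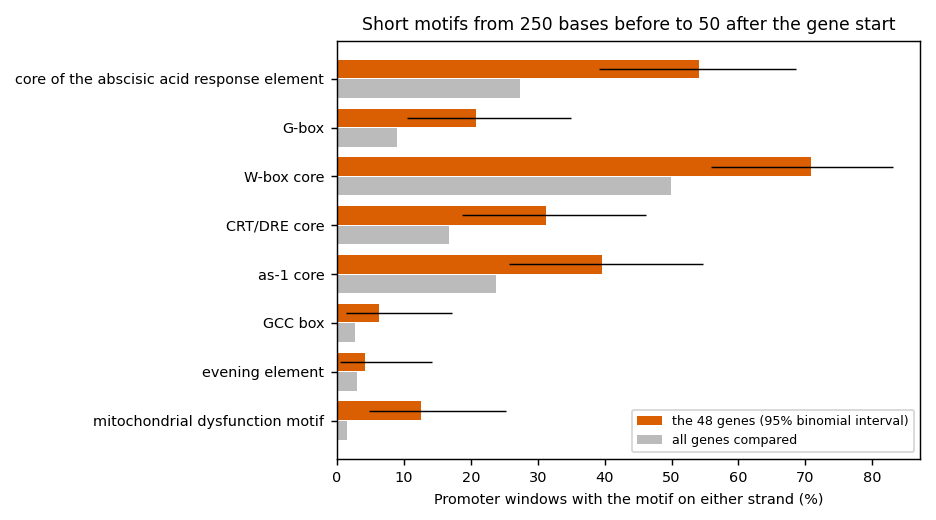
Share of promoter windows, in percent, that hold each of 8 short motifs on either strand, for the 48 genes (orange, with exact 95% binomial intervals) and all genes compared (grey). Bars start at 0; the members' share exceeds that of all genes in each motif in this window, though not for the evening element when only the bases before the start are read, and the intervals of the rarest motifs are wide.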

How the data were processed

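RNA-seq of leaves gave 1 library per group. The deposited tables hold, per gene, a raw read count, an RPKM value and the percent of gene length covered, per the file headers; the authors used TAIR10, per the submitters' processing notes, and the aligner and counter are unnamed (not given in the sources used here). Here, counts were scaled by the file total to CPM, a missing gene was set to 0, and 0.05 was added before ratios. The members and all lists were chosen with earlier results of these data known, and roles were written after the members were known. Genes named by rule were SME1, the 20 members with the largest ratio, the 10 with the highest RPKM, members on a list, transcription factors, adjacent members and the 3 genes on each side of the threshold; the other members are named because every member is accounted for, and other genes, the neighbours, family extremes, left-out codes and comparison genes such as BIP1 and PR1, were chosen after their values were seen. Gene names, introns and promoters came from the TAIR10.1 annotation (22861 of 23049 codes matched); 5 list entries whose symbol it does not pair with the code were left out of the lists. Near copies are transcripts at least 90% identical over at least 50% of the length, or named otherwise (blastn 2.17.0). With 1 library per group no test was made; intervals are exact (Clopper-Pearson, 95%, scipy 1.17.1). The rule was tested on simulated data. Alternatives were TMM factors (edgeR 4.0.16), DESeq2 1.42.0 size factors, other added values, filters and thresholds, leaving out comparators, and promoter windows.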

Additional observations from a re-analysis of the deposited data

Results flagged for a closer look

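Members whose ratio pointed opposite ways under the labels of the study were singled out, where the interval of the lower ratio lay below 1. There were 10, the difference was not tested, and counting error is the only error known. The upward ratio was fixed in all of them, since the rule requires it of every member, so only the downward one varied. Over all genes compared, the interval lay below 1 in 29.4% for Col-0 at 4 °C over Col-0 at 20 °C and in 35.9% for sme1-1 at 20 °C over Col-0 at 20 °C, so 9 and 1 of 48 are not high counts. In 9 of them the library labelled Col-0 at 4 °C was below Col-0 at 20 °C while sme1-1 at 4 °C was above sme1-1 at 20 °C. The ratios between the libraries labelled Col-0 were 0.325 (0.148 to 0.662) for AT4G03450, 0.437 (0.201 to 0.897) for AACT1 and 0.515 (0.371 to 0.707) for AT2G41730. They were 0.532 (0.281 to 0.977) for CHI, 0.575 (0.502 to 0.658) for SOT12 and 0.654 (0.547 to 0.782) for GSTF7. The other 3 were closer to 1, at 0.805 (0.744 to 0.871) for WAK1, 0.853 (0.730 to 0.997) for AT3G60420 and 0.859 (0.791 to 0.933) for PCC1. The ratios between the libraries labelled sme1-1 were 3.05 for SOT12 to 5.27 for AT4G03450. In AT1G19960 the library labelled sme1-1 at 20 °C was 0.795 (0.691 to 0.914) of Col-0 at 20 °C, while sme1-1 at 4 °C was 3.53 times Col-0 at 4 °C.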

How the results depend on the processing

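The number of members was 41 with TMM or DESeq2 factors, 33 with 0.5 CPM added and 55 with 0.01 CPM added, against 48. It moved further with no filter on the mean (166 genes), a mean of at least 5 CPM (21), a threshold of 2-fold (232) or 4-fold (15), and without the comparators labelled Col-0 at 4 °C (89), sme1-1 at 20 °C (584) or both (806). These follow from the construction of the rule. With 0.5 CPM added, the members' median log2 ratio was 1.75 to sme1-1 at 20 °C and 2.25 to Col-0 at 4 °C, and 4 members were 2-fold higher and 0 were 2-fold lower in Col-0 at 4 °C than in Col-0 at 20 °C. The count above the product by 2-fold was 39 with either scaling and 40 with 0.5 CPM added, alternatives chosen after seeing the data. Among the values recomputed, 1 changed direction against all genes: the evening element was in 4.17% of member windows against 3.02% of all, but in 2.08% against 2.52% with only the bases before the start. TMM multiplied member folds by 0.936 to 0.975. With 1 library per group, leaving out a replicate was not possible. No paired analysis was possible because each group has 1 library. Depth limits the members with the fewest reads in a library most, with as few as 2 in PXMT1, 4 in TSPO, 5 in AT1G36622, 6 in DTX1 and IOS1 and 7 in AT3G03341. Strand was not given in the sources used here, so reads of overlapping genes cannot be told apart.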

Other observations

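By the ratio the rule used, the codes left out by name ranged from 1.17 in CYP71A13 to 10.2 in PAD3, since some of them did not meet the rule. PAD3, the last enzyme of camalexin synthesis, was at 0.628, 2.27, 0.255 and 23.6 CPM in the libraries labelled Col-0 at 20 °C, sme1-1 at 20 °C, Col-0 at 4 °C and sme1-1 at 4 °C, 10.4-fold (8.49 to 12.9) over the next library. LEA7 was at 0.134, 0.578, 0.0424 and 4.23 CPM. UGT74E2, which glucosylates an auxin, was at 5.04, 1.60, 2.67 and 21.8 CPM, lowest in the library labelled sme1-1 at 20 °C. AOX1A, the mitochondrial alternative oxidase, did not meet the rule, at 25.1, 20.9, 18.2 and 64.6 CPM, a fold of 2.57 (2.40 to 2.75). CYP71A13, of the camalexin pathway, was at 17.6, 3.47, 8.34 and 20.7 CPM, so its level in Col-0 at 20 °C was close to that in sme1-1 at 4 °C.

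In the opposite direction, 36 genes were at least 3 times lower than in every other library in the library labelled sme1-1 at 4 °C alone, against 9, 16 and 7 genes for the libraries labelled Col-0 at 20 °C, sme1-1 at 20 °C and Col-0 at 4 °C.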
